A study of Mus musculus with 10 samples.

Results

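The renin-angiotensin system genes described here are Agt, Ren1, Atp6ap2, Ace, Enpep, Agtr1a, Agtr1b, Agtr2 and Agtrap. They were chosen by symbol, as the identifiers of the count table that GENCODE M21 assigns to these names. Each symbol had 1 identifier, which gave 9 members among the 51789 genes of the table. Of these, 6 passed edgeR's filter on low counts, as did 15232 genes in all, and Agtr1b, Agtr2 and Ren1 did not.

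RNA-seq was performed on cardiomyocytes isolated from mouse hearts 4 days after surgical myocardial infarction (MI). The study asked how overexpression of G protein-coupled receptor kinase 5 (GRK5) in cardiomyocytes alters their transcriptome after ischemic injury. The TgGRK5-MI group held 5 mice with a cardiomyocyte-specific GRK5 transgene, and the NLC-MI group held 5 non-transgenic littermate controls, with 1 library per mouse. Both groups had an infarct from permanent coronary occlusion and no sham-operated hearts were sequenced here, so every value describes the injured state.

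Libraries held between 7968779 and 23381527 counts, and the floor of detection was set at 3 counts, which is 0.121 to 0.393 CPM (counts relative to library size, scaled by the TMM method). Grk5 was at 60.4 ± 9.50 CPM (SD, n = 5) across NLC-MI mice and 1222 ± 472 CPM (SD, n = 5) across TgGRK5-MI mice, with every TgGRK5-MI library above every NLC-MI library. All 10 cardiomyocyte markers (Myh6, Tnnt2, Tnni3, Actc1, Ryr2, Pln, Myl2, Myl3, Ttn and Atp2a2) were abundant, with a summed level of 56006 to 146326 CPM in the NLC-MI libraries and 57717 to 110108 CPM in the TgGRK5-MI libraries. Markers of other cell types were present as well. The 8 fibroblast markers summed to between 4031 and 24766 CPM and the 8 macrophage and monocyte markers to between 647 and 2295 CPM over the 10 libraries. In such bulk RNA, fewer cells of a type and less RNA per cell cannot be told apart.

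Angiotensinogen, the product of Agt, is cleaved by renin to angiotensin I, which angiotensin-converting enzyme (Ace) converts to angiotensin II. Angiotensin II acts on AT1 receptors (Agtr1a and Agtr1b in the mouse) and on the AT2 receptor (Agtr2), and aminopeptidase A (Enpep) converts it further to angiotensin III. In the heart the pathway is known for its part in hypertrophy, fibrosis and remodeling after infarction, and inhibitors of Ace and of AT1 receptors are standard treatments.

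Mice carry separate genes for the AT1a and AT1b receptors, and the reads that can be assigned to each depend on where their sequences differ. The coding sequences of Agtr1a and Agtr1b in GENCODE M21 (GRCm38) are both 1080 bases long and identical at 981 of them (90.8%). The coding sequence of Agtr2 (1092 bases) was 48.0% identical to Agtr1a and 48.2% to Agtr1b. The longest run shared by Agtr1a and Agtr1b is 66 bases, at coding bases 75 to 140, and lies at chr13:30381028-30381093 (plus strand) in Agtr1a and at chr3:20316301-20316366 (minus strand) in Agtr1b. A read that falls within this run cannot be assigned to 1 of the genes from its sequence. The run is given on a line of its own, from 5′ to 3′.

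Agtr1a and Agtr1b, shared run: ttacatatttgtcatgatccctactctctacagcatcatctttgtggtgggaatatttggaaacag

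The 60-base window in which the receptors differ most covers coding bases 964 to 1023, at chr13:30381917-30381976 (plus strand) in Agtr1a and chr3:20315418-20315477 (minus strand) in Agtr1b. It holds 13 differences, shown in capitals, and reads from such a stretch separate the genes.

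Agtr1a, coding bases 964 to 1023: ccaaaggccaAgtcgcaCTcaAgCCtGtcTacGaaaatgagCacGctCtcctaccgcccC
Agtr1b, coding bases 964 to 1023: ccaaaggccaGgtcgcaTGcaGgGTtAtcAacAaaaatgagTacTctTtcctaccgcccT

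None of the 6 tested members passed the test for a difference between TgGRK5-MI and NLC-MI. At an adjusted p under 0.10 (edgeR's quasi-likelihood test with Benjamini-Hochberg adjustment over all genes tested), 0 of 6 members were called, against 12 of 15232 genes (0.0788%), of which 8 were higher (0.0525%) and 4 lower (0.0263%) in TgGRK5-MI. At an unadjusted p under 0.05 the edgeR test called 0 of 6 members, against 586 genes (3.85%), and DESeq2 likewise called 0 members at its adjusted p. In no member did the groups of 5 libraries lie apart, which they did in 153 genes (1% of those tested). Ace, Agtr1a and Atp6ap2 had positive log2 fold changes and Agt, Enpep and Agtrap negative ones, with a median of -0.04 over the 6 members and 0.00 over all genes tested. Over all genes 50.2% of the log2 fold changes were above 0. The adjusted p of each of the 6 tested members was 1.00 with edgeR and 1.00 with DESeq2.

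**Figure D1:**
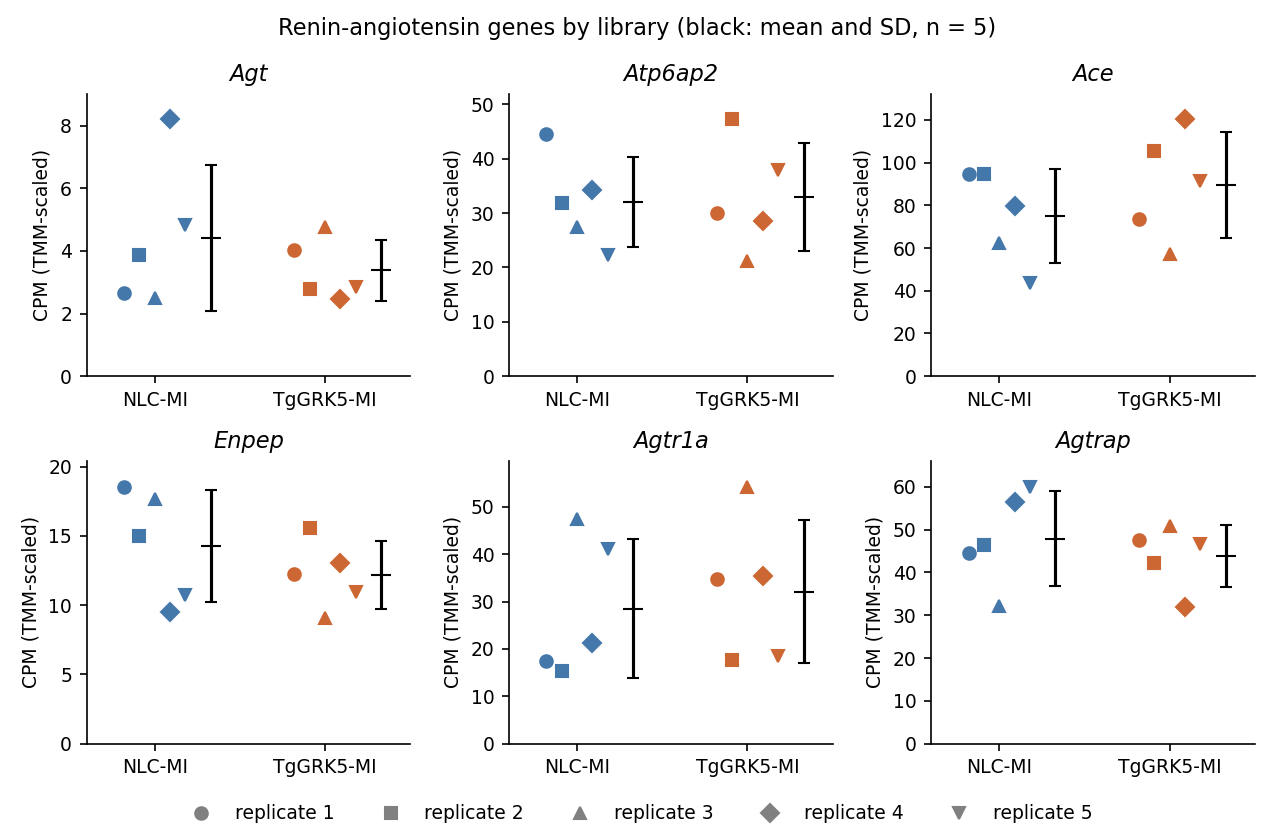
Level of the 6 tested members in each library, in CPM scaled by TMM on linear axes that start at 0, for 5 NLC-MI (blue) and 5 TgGRK5-MI (orange) mice, with the mean and SD in black and a symbol for each replicate number. The groups overlap in every panel, and Agtr1a lies either between 15.3 and 21.3 CPM or between 34.7 and 54.2 CPM in both groups.

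Agt (ENSMUSG00000031980, chr8:124556534-124569706, GRCm38, minus strand) encodes angiotensinogen, the only precursor of the angiotensins. It was the member with the fewest counts among those tested, from 19 to 175 a library. In NLC-MI replicates 1 to 5 Agt was at 2.64, 3.89, 2.49, 8.21 and 4.84 CPM. In TgGRK5-MI it was at 4.03, 2.79, 4.78, 2.48 and 2.85 CPM. NLC-MI replicate 4 stood highest of all 10, and the remaining NLC-MI libraries covered the same range as TgGRK5-MI. The means were 4.41 ± 2.33 CPM (SD, n = 5) across NLC-MI mice and 3.38 ± 0.978 CPM (SD, n = 5) across TgGRK5-MI mice. The log2 fold change was -0.40 (SE 0.34, 95% interval -1.14 to 0.34, edgeR quasi-likelihood p = 0.264, adjusted p = 1.00), and the two-sided exact permutation test over the 5 and 5 libraries gave p = 0.524. Without NLC-MI replicate 4 the Agt log2 fold change was -0.04. The interval covered TgGRK5-MI levels from 0.455 to 1.27 times those of NLC-MI.

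Ren1 (ENSMUSG00000070645, chr1:133350510-133360325, plus strand) encodes renin, the aspartyl protease released by juxtaglomerular cells of the kidney that starts the cascade. It had 0 counts in every NLC-MI library and 1 count each in TgGRK5-MI replicates 1 and 2. These 2 counts stand among 174410630 counts in all, under the 3 counts (0.0172 CPM over all libraries) taken as the floor. Ren1 RNA was therefore not detectable at this depth, and no fold is given.

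Atp6ap2 (ENSMUSG00000031007, chrX:12587801-12617049, plus strand) encodes the (pro)renin receptor, which binds renin and prorenin and is also an accessory subunit of the vacuolar proton pump. In NLC-MI it was at 44.5, 31.8, 27.3, 34.3 and 22.3 CPM in replicates 1 to 5. The TgGRK5-MI libraries had 30.0, 47.3, 21.2, 28.5 and 37.9 CPM. The highest and the lowest library both belonged to TgGRK5-MI, and the groups overlapped over nearly their whole range. Atp6ap2 averaged 32.1 ± 8.33 CPM (SD, n = 5) across NLC-MI mice and 32.98 ± 9.94 CPM (SD, n = 5) across TgGRK5-MI mice. Its log2 fold change was 0.04 (SE 0.23, 95% interval -0.47 to 0.55, edgeR p = 0.862, adjusted p = 1.00, exact permutation p = 0.921), the smallest in size of the 6 members.

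Ace (ENSMUSG00000020681, chr11:105967945-105989964, plus strand) encodes the peptidyl-dipeptidase that makes angiotensin II and also inactivates bradykinin. In NLC-MI it was at 94.7, 94.6, 62.2, 79.7 and 43.9 CPM. In TgGRK5-MI it was at 73.5, 105.3, 57.4, 120.3 and 91.4 CPM. TgGRK5-MI replicates 2 and 4 lay above every NLC-MI library, while TgGRK5-MI replicate 3 lay below all but one of them. Ace averaged 75.0 ± 22.0 CPM (SD, n = 5) across NLC-MI mice and 89.6 ± 25.0 CPM (SD, n = 5) across TgGRK5-MI mice, and 4 of 5 TgGRK5-MI libraries exceeded the NLC-MI mean. The log2 fold change was 0.26 (SE 0.25, 95% interval -0.28 to 0.79, edgeR p = 0.321, adjusted p = 1.00, exact permutation p = 0.381). With limma-voom and sample quality weights the Ace value was -0.01. Of the 5287 exon bases of Ace, 295 overlap the antisense gene Gm11651, which had 0 counts in all libraries.

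Enpep (ENSMUSG00000028024, chr3:129269175-129332720, minus strand) encodes aminopeptidase A, a membrane enzyme of pericytes and of several epithelia. It was at 18.5, 15.02, 17.7, 9.52 and 10.7 CPM in NLC-MI. The TgGRK5-MI libraries had 12.3, 15.6, 9.04, 13.0 and 10.95 CPM. NLC-MI replicates 1 and 3 were the highest, TgGRK5-MI replicate 3 was the lowest, and the other libraries were interleaved. Enpep averaged 14.3 ± 4.04 CPM (SD, n = 5) across NLC-MI mice and 12.2 ± 2.43 CPM (SD, n = 5) across TgGRK5-MI mice, with a log2 fold change of -0.23 (SE 0.22, 95% interval -0.72 to 0.26, edgeR p = 0.327, adjusted p = 1.00, exact permutation p = 0.389). Of the TgGRK5-MI libraries, 1 of 5 exceeded the NLC-MI mean.

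Agtr1a (ENSMUSG00000049115, chr13:30336441-30382867, plus strand) encodes the AT1a receptor, the main vascular and cardiac receptor of angiotensin II in the mouse. In NLC-MI it was at 17.5, 15.3, 47.5, 21.3 and 41.1 CPM. In TgGRK5-MI it was at 34.7, 17.6, 54.2, 35.4 and 18.5 CPM. The libraries fell into separate ranges, with 5 between 15.3 and 21.3 CPM (3 of them NLC-MI) and 5 between 34.7 and 54.2 CPM (2 of them NLC-MI). The gap between the ranges took 38.6% of the whole range on the log2 scale, and both groups had libraries on either side of it. Among the libraries above the gap were the 3 with the fewest counts, NLC-MI replicate 3 and TgGRK5-MI replicates 3 and 4, with 7968779, 12833652 and 9114469 counts. The other libraries above the gap, NLC-MI replicate 5 and TgGRK5-MI replicate 1, held 17539882 and 22231424 counts. Those below the gap held 18337488 to 23381527 counts. The part of depth in the level of Agtr1a was not tested.

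Agtr1a averaged 28.5 ± 14.7 CPM (SD, n = 5) across NLC-MI mice and 32.1 ± 15.02 CPM (SD, n = 5) across TgGRK5-MI mice. The log2 fold change was 0.17 (SE 0.38, 95% interval -0.67 to 1.01, edgeR p = 0.661, adjusted p = 1.00, exact permutation p = 0.714). Its interval was the widest of the 6 members, with 329 to 775 counts a library. The highest library of each group exceeded its lowest by 3.11 times in NLC-MI and 3.08 times in TgGRK5-MI. The log2 fold change of Agtr1a was -0.11 without TgGRK5-MI replicate 3, -0.02 without the 3 libraries with the fewest counts and 0.43 without NLC-MI replicate 3. It was 0.54 with limma-voom and quality weights and 0.55 with the macrophage markers as a covariate, and adjusted p-values over the alternatives ran from 0.446 to 1.00 (edgeR, DESeq2 or limma).

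The other angiotensin receptors were at or under the floor. Agtr1b (ENSMUSG00000054988, chr3:20314473-20367177, minus strand), the AT1b receptor, had 0 counts in NLC-MI and 1 count each in TgGRK5-MI replicates 2 and 4. Agtr2 (ENSMUSG00000068122, chrX:21484544-21489164, plus strand), the AT2 receptor, had 1 count in NLC-MI replicate 2 and 1 in TgGRK5-MI replicate 5. Neither was detectable at this depth, and no fold is given. Agtr1a had 4694 counts in all against 2 for Agtr1b, so nearly all counts of the AT1 receptor genes were assigned to Agtr1a. Summing the counts of both AT1 receptor genes left the log2 fold change at 0.17.

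Agtrap (ENSMUSG00000029007, chr4:148077061-148088031, minus strand) encodes a membrane protein that binds the tail of the AT1 receptor and promotes its internalization. It was at 44.6, 46.4, 32.1, 56.5 and 60.02 CPM in NLC-MI. The TgGRK5-MI libraries had 47.7, 42.1, 50.8, 32.0 and 46.7 CPM. In each group 1 library lay near 32 CPM, and these were NLC-MI replicate 3 and TgGRK5-MI replicate 4, which had the fewest counts. TgGRK5-MI replicate 3, also with few counts, had the highest level of its group. NLC-MI replicates 4 and 5 lay above all TgGRK5-MI libraries. Agtrap averaged 47.9 ± 11.01 CPM (SD, n = 5) across NLC-MI mice and 43.8 ± 7.31 CPM (SD, n = 5) across TgGRK5-MI mice, with a log2 fold change of -0.13 (SE 0.19, 95% interval -0.54 to 0.28, edgeR p = 0.503, adjusted p = 1.00, exact permutation p = 0.571).

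**Figure D2:**
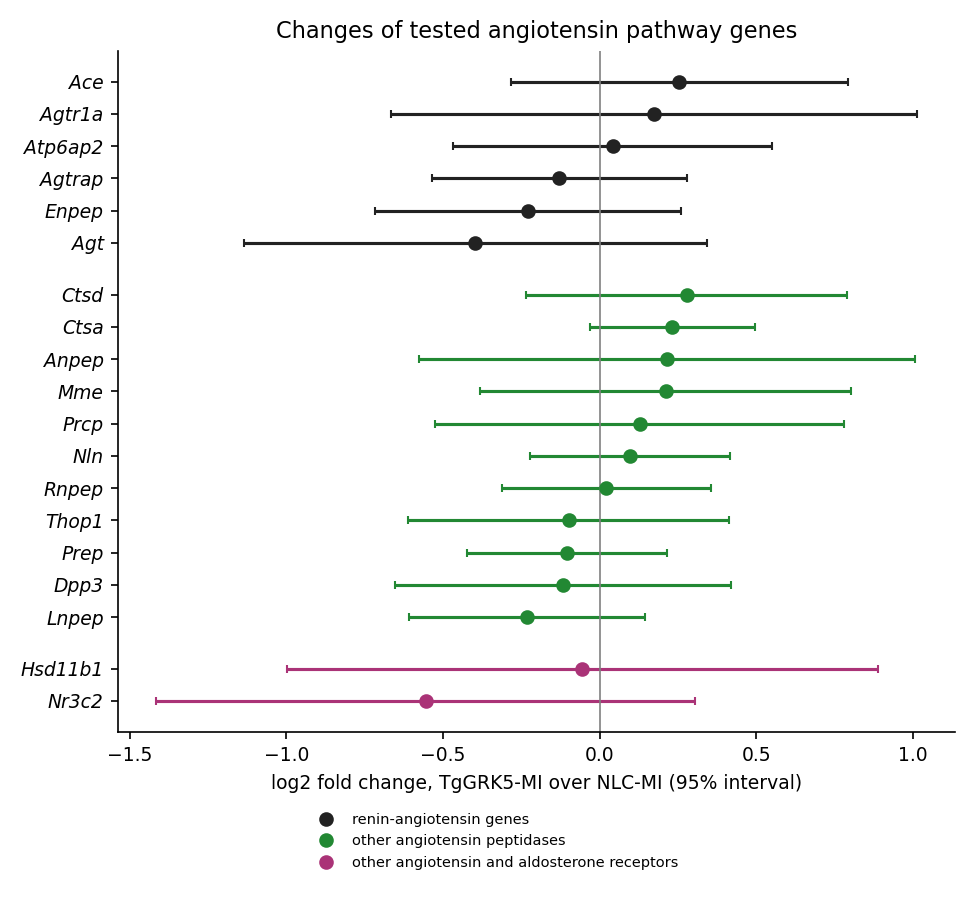
Log2 fold change of TgGRK5-MI over NLC-MI with its 95% interval from edgeR, for the 6 tested renin-angiotensin genes (black), 11 other angiotensin peptidases (green) and 2 genes of the list of other receptors and the aldosterone axis (purple). Every interval crosses 0, and those of the members run from -1.14 (Agt) to 1.01 (Agtr1a).

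Levels of different genes were set in order per length, as mean CPM per kilobase of the union of exons over the 10 libraries. Ace was highest at 15.6 CPM per kilobase, followed by Atp6ap2 at 12.4, Agtr1a at 10.9, Agtrap at 10.8, Enpep at 2.81 and Agt at 2.06 CPM per kilobase. Neighbours in the order of geometric means were compared within the same libraries with the two-sided exact sign-flip permutation test. Ace exceeded Atp6ap2 by 1.24 times and in 9 of 10 libraries (exact p = 0.00391). Atp6ap2 and Agtrap did not differ beyond the spread (higher in 7 of 10 libraries, exact p = 0.305), as did Agtrap and Agtr1a (5 of 10 libraries, exact p = 0.660). Agtr1a exceeded Enpep 3.60-fold and in 10 of 10 libraries (exact p = 0.00195, the smallest that 10 libraries can give). Enpep was above Agt in 7 of 10 libraries (exact p = 0.0938). With the length of the longest transcript instead, Enpep exceeded Agt in 8 of 10 libraries (exact p = 0.0371). By geometric means, Agtrap stood above Agtr1a with the union of exons and below it with the longest transcript.

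Ratios of members within a library cancel its scaling. The ratio of Ace, which makes angiotensin II, to Enpep, which cleaves it, had a geometric mean of 4.61 among NLC-MI and 6.39 among TgGRK5-MI libraries. All 5 TgGRK5-MI libraries exceeded the NLC-MI mean, with a difference of 0.47 on the log2 scale, but the difference did not pass the test (two-sided exact permutation p = 0.103, Benjamini-Hochberg adjusted p = 0.310 over the 3 ratios computed). The ratio of Agtr1a to Agtrap was 0.835 among NLC-MI and 1.03 among TgGRK5-MI libraries (exact permutation p = 0.579, adjusted p = 0.841). These ratios are of CPM per kilobase of exon, and the pairs were chosen after the members' values were seen.

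The rest of the pathway was followed in 4 lists, of other angiotensin peptidases, other angiotensin receptors with the aldosterone axis, components that couple the receptors to the cell, and genes known to respond to angiotensin II. Of their 66 genes 56 were tested, 25 had a positive log2 fold change, and 0 passed an adjusted p under 0.10 with edgeR. At an unadjusted p under 0.05, 2 were lower in TgGRK5-MI and 0 higher, against 2.08% and 1.77% of all genes.

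Among the other angiotensin peptidases, 12 of 17 were tested, 8 were positive, and 0 passed either threshold. Their median log2 fold change was 0.11, with values of -0.23 for Lnpep, the angiotensin IV-binding aminopeptidase, and 0.28 for Ctsd. The most abundant per length were the lysosomal proteases Ctsd (cathepsin D, 891 CPM per kilobase) and Ctsa (cathepsin A, 59.3 CPM per kilobase), and Anpep (aminopeptidase N, 10.5 CPM per kilobase). Ctsa was at 257.3 ± 14.2 CPM across NLC-MI mice and 302.3 ± 17.4 CPM across TgGRK5-MI mice (SD, n = 5) and its groups did not overlap, as in 1% of all genes, but its log2 fold change of 0.23 did not pass edgeR's quasi-likelihood test (adjusted p = 1.00). The chymases Cma1 and Mcpt4, and Ctsg, Cpa3 and Klk1, all of which can process angiotensin peptides or their precursor, had at most 9 counts in any library and were not tested. Cma1, Mcpt4 and Cpa3 are also mast cell markers.

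Of the list of other receptors and the aldosterone axis 2 of 7 genes were tested. Nr3c2, the mineralocorticoid receptor, was at 12.9 ± 6.22 CPM across NLC-MI mice and 8.75 ± 4.46 CPM across TgGRK5-MI mice (SD, n = 5), a log2 fold change of -0.56 with an edgeR adjusted p of 1.00. Hsd11b1, which regenerates active glucocorticoid, had a log2 fold change of -0.05, and the median of both was -0.30. Mas1, the receptor of angiotensin-(1-7), had 1 to 13 counts a library and Hsd11b2, which inactivates glucocorticoid, 0 to 15. Mrgprd, a receptor of alamandine, and the aldosterone synthase gene Cyp11b2 had 0 counts in all libraries, and Cyp11b1 had 1 count in 1 library.

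All 25 components of receptor coupling (G protein subunits, phospholipases, protein kinases C, arrestins and regulators) were tested, of which 8 were positive, with a median log2 fold change of -0.04 and a range from -0.57 to 0.63. The most abundant per length were Gnai2 (an inhibitory G protein subunit, 133.5 CPM per kilobase), Gna12 (36.3 CPM per kilobase) and Mtus1, an AT2 receptor interacting protein (24.5 CPM per kilobase). Rgs2, which shortens Gq signaling downstream of the AT1 receptor, was at 33.9, 30.5, 43.6, 20.8 and 58.6 CPM in NLC-MI and at 21.5, 31.4, 27.1, 26.5 and 19.9 CPM in TgGRK5-MI. NLC-MI replicates 3 and 5 stood above all others and the remaining libraries overlapped. Its log2 fold change was -0.57 (SE 0.25, edgeR p = 0.0428, adjusted p = 1.00, exact permutation p = 0.111), and the unadjusted p was above 0.05 in 11 of 22 alternative analyses. Over these the log2 fold change of Rgs2 ran from -0.74 to -0.35, the latter without NLC-MI replicate 5.

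All 17 genes of the list known to respond to angiotensin II were tested, of which 9 were positive, with a median of 0.07. Fos, an immediate-early transcription factor gene, was at 144.0, 113.5, 322.0, 86.0 and 288.3 CPM in NLC-MI. In TgGRK5-MI it was at 60.3, 82.8, 84.8, 73.7 and 74.6 CPM. Every TgGRK5-MI library lay below every NLC-MI library, with NLC-MI replicate 4 close to the highest TgGRK5-MI library. The log2 fold change of Fos was -1.34 (SE 0.33, 95% interval -2.07 to -0.61, edgeR p = 0.00177, adjusted p = 0.501), and the exact permutation test gave p = 0.00794, the smallest that 5 against 5 libraries allow. With DESeq2 the adjusted p of Fos was 0.0349, and over 22 alternatives the log2 fold change ran from -1.53 to -0.87 with adjusted p from 0.0349 to 1.00. Fos responds to many stimuli besides angiotensin II.

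The other genes of that list had unadjusted edgeR p-values above 0.05, the lowest of them 0.0728 for Myh7. Egr1, an immediate-early gene like Fos, had a log2 fold change of -0.77. Myh7 and Acta1, the fetal myosin and actin genes re-expressed in hypertrophy, had values of 0.74 and 0.59. The most abundant per length were the natriuretic peptide genes Nppa (2731 CPM per kilobase) and Nppb (1064 CPM per kilobase), and Acta1 (593.1 CPM per kilobase), with log2 fold changes of -0.04 for Nppa and 0.38 for Nppb. Ccn2 and Tgfb1, which belong to the fibrotic response, were at 0.09 and 0.11. Col1a1 and Postn of this list are also fibroblast markers.

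To describe the differences among libraries, the members' levels were set against those of 10 marker lists, each taken as its mean log2 CPM in a library. No list passed a test for a difference between the groups (exact permutation p from 0.333 to 0.929). Of the single markers, Ryr2, Abcc9 and Cspg4 had an unadjusted edgeR p under 0.05, all lower in TgGRK5-MI (log2 fold changes of -0.93, -0.67 and -0.62, and adjusted p above 0.10). They were 1 of 10 cardiomyocyte markers (Ryr2) and 2 of 8 pericyte and smooth muscle markers, and no other tested marker passed. Of all genes tested, 2.08% were lower and 1.77% higher at this threshold. Pearson's r and Spearman's rho were computed over the 10 libraries for 5 members and 10 lists, with permutation tests of 100000 resamples and Benjamini-Hochberg adjustment over the 50 relations. Agtr1a had been planned as well but was left out after its values were seen. Its libraries fell into separate ranges of 5 each, too few for a value within either. The adjusted p-values hold for the 50 relations without it. Of the 50 relations, 11 had an adjusted p under 0.10 by Pearson's r and 10 by Spearman's rho, with 9 in common. The share of all tested genes with such relations was not computed. Whether the members differ from other genes in this respect was therefore not tested. With the median of each list in place of its mean, 8 passed by Pearson's r, all of them among the 11, and 3 by rho. The relations lost with the median were those of Ace with lymphocyte, Atp6ap2 with fibroblast, and Enpep with pericyte and smooth muscle markers.

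**Figure D3:**
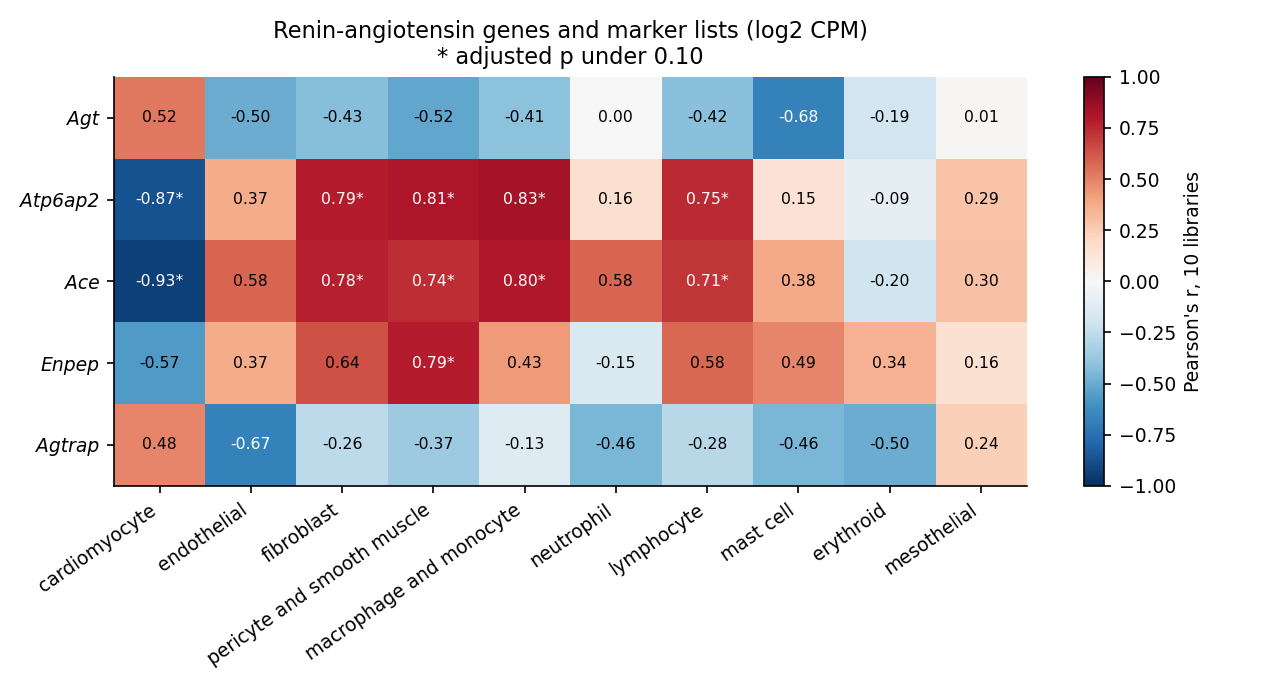
Pearson's r over 10 libraries between the log2 CPM of 5 members and the mean log2 CPM of 10 cell type marker lists, on a color scale from -1 (blue) to 1 (red), with a star at an adjusted permutation p under 0.10. Ace and Atp6ap2 hold 5 stars each and Enpep 1, and the r with cardiomyocyte markers is -0.93 for Ace and -0.87 for Atp6ap2.

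Ace was lower in libraries with more cardiomyocyte marker RNA (r = -0.93, permutation p = 9e-05, adjusted p = 0.00450; rho = -0.95, permutation p = 0.000170, adjusted p = 0.00850). Without the 2 libraries farthest from the median, NLC-MI replicate 5 and TgGRK5-MI replicate 2, r was -0.87, and with the group means removed it was -0.93. Ace was higher with the macrophage and monocyte markers (r = 0.80, rho = 0.85, permutation p = 0.00544 and 0.00267, adjusted p = 0.0528 and 0.0361), and without the 2 farthest libraries r was 0.69. The r of Ace was 0.78 with the fibroblast, 0.74 with the pericyte and smooth muscle, and 0.71 with the lymphocyte markers (permutation, adjusted p = 0.0528, 0.0715 and 0.0958), and rho was 0.82, 0.83 and 0.84 (permutation, adjusted p = 0.0427, 0.0369 and 0.0361). Without the 2 farthest libraries these r were 0.65, 0.71 and 0.44, and with the median of the lymphocyte list r was 0.57 (permutation, adjusted p = 0.290). Of the 6 lymphocyte markers 5 did not pass the filter. With the endothelial markers, which mark the cells best known for Ace, r was 0.58 and did not pass the test.

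Atp6ap2 showed the same signs. Its r was -0.87 with the cardiomyocyte markers (permutation p = 0.000930, adjusted p = 0.0232; rho = -0.85, permutation p = 0.00320, adjusted p = 0.0361), -0.83 without the 2 farthest libraries and -0.88 with group means removed. With the macrophage and monocyte markers r was 0.83 (permutation p = 0.00327, adjusted p = 0.0528; rho = 0.85, permutation p = 0.00285, adjusted p = 0.0361), and 0.69 without the 2 farthest libraries. With the pericyte and smooth muscle, fibroblast and lymphocyte markers r was 0.81, 0.79 and 0.75 (permutation, adjusted p = 0.0528, 0.0528 and 0.0715). By rho only the fibroblast relation passed (rho = 0.68, 0.81 and 0.68, permutation, adjusted p = 0.128, 0.0444 and 0.128), and with the median of the fibroblast list its r was 0.69 (permutation, adjusted p = 0.153). The relation with the lymphocyte markers rests on few counts, since 5 of the 6 markers did not pass the filter, and r was 0.49 without the 2 farthest libraries.

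Enpep had 1 relation that passed among the 10 lists, with the pericyte and smooth muscle markers (r = 0.79, permutation p = 0.00845, adjusted p = 0.0528; rho = 0.77, permutation p = 0.0127, adjusted p = 0.0704), with r of 0.72 without NLC-MI replicate 2 and TgGRK5-MI replicate 3. With the median of that list the relation was lost (r = 0.56, permutation, adjusted p = 0.291). By Pearson's r, Agt and Agtrap had 0 of 10 relations each at an adjusted p under 0.10, while by rho Agt passed narrowly with the endothelial markers (rho = -0.73, permutation, adjusted p = 0.0996). Their r ran from -0.68 (mast cell markers) to 0.52 (cardiomyocyte markers) for Agt and from -0.67 (endothelial markers) to 0.48 (cardiomyocyte markers) for Agtrap. Of the 6 mast cell markers 5 did not pass the filter, so the lowest r of Agt rests on few counts. The marker lists vary together across these libraries and all values are shares of 1 library, so the 11 relations are not independent of each other, and the part of the cell mixture in the members' levels was not tested.

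**Figure D4:**
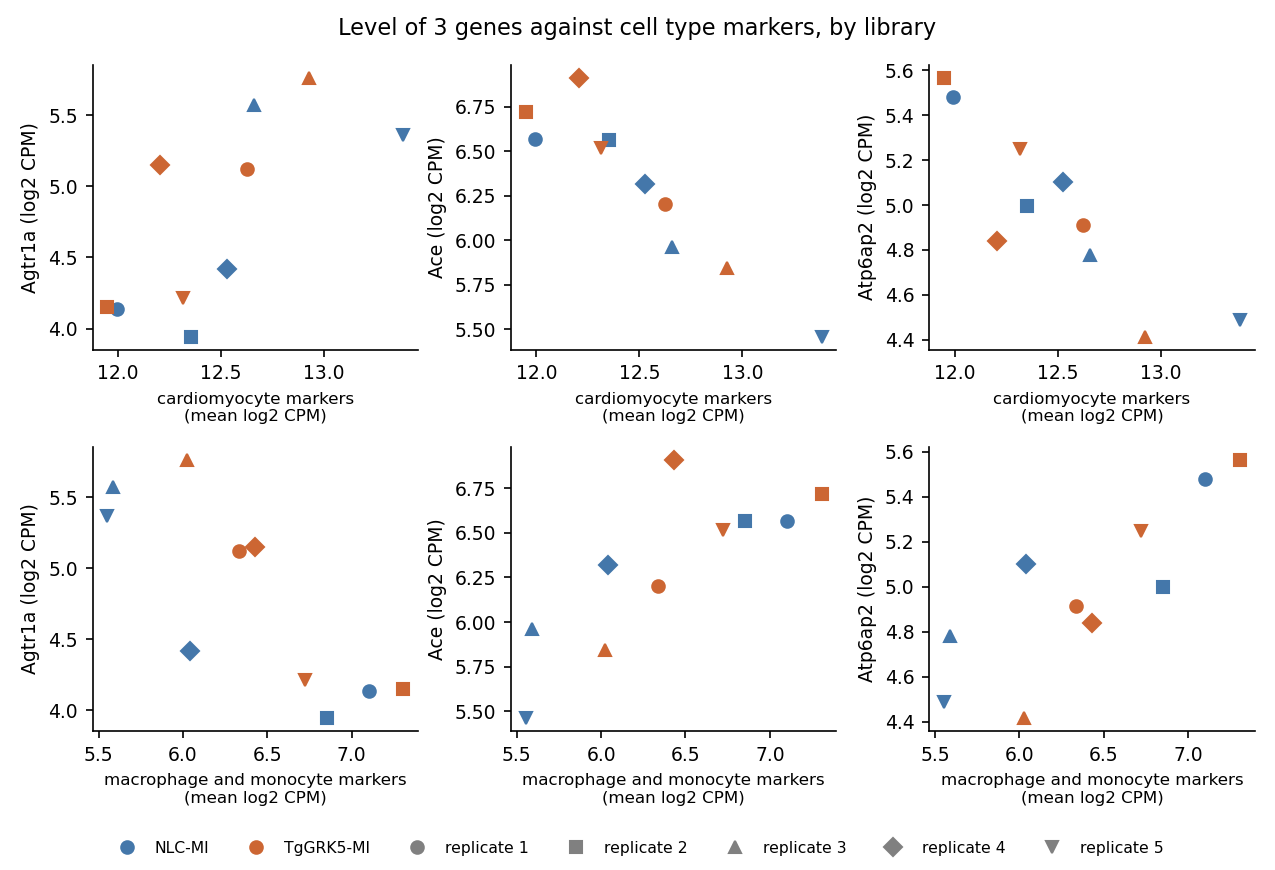
Log2 CPM of Agtr1a, Ace and Atp6ap2 in each library against the mean log2 CPM of cardiomyocyte markers (top) and of macrophage and monocyte markers (bottom), for NLC-MI (blue) and TgGRK5-MI (orange), with a symbol for each replicate number. Ace and Atp6ap2 fall from left to right in the top panels and rise in the bottom ones, with r of -0.93 and -0.87 above and 0.80 and 0.83 below, and Agtr1a lies in separate upper and lower ranges.

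The levels of Agtr1a are given beside the markers without a coefficient. The highest Agtr1a level, 54.2 CPM in TgGRK5-MI replicate 3, stood beside a summed cardiomyocyte marker level of 110108 CPM and a macrophage and monocyte level of 1078 CPM. The lowest, 15.3 CPM in NLC-MI replicate 2, stood beside 76890 CPM of cardiomyocyte and 1634 CPM of macrophage and monocyte markers. NLC-MI replicate 5 had the most cardiomyocyte marker RNA (146326 CPM) and 41.1 CPM of Agtr1a, and TgGRK5-MI replicate 2, with the most macrophage and monocyte marker RNA (2295 CPM), had 17.6 CPM. The levels did not follow each other throughout. NLC-MI replicate 1 had less cardiomyocyte marker RNA (56006 CPM) than NLC-MI replicate 2 but more Agtr1a (17.5 CPM). NLC-MI replicate 4 had 21.3 CPM of Agtr1a beside 856 CPM of macrophage and monocyte markers, and TgGRK5-MI replicate 4 had 35.4 CPM beside 68682 CPM of cardiomyocyte markers.

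The tested genes whose log2 CPM over the 10 libraries was most like that of a member are given as a description, by Pearson's r. These r are the 3 highest for each member over all genes tested, and no p-value was computed for them. The cells from which the members' RNA came were not tested. For Ace they were Cap1 (0.98), Mrc1 (0.98) and Cd37 (0.97), of which Mrc1, a mannose receptor, and Cd37, a leukocyte tetraspanin, are genes of macrophages and other leukocytes. For Atp6ap2 they were 1110038B12Rik (0.98), Pgm3 (0.98) and Rpn1 (0.97), and Rpn1 is a subunit of the oligosaccharyltransferase of the endoplasmic reticulum. For Enpep they were Lpar4, Hoxb2 and Itga8 (0.91 each), of which Itga8 is an integrin of mesenchymal cells. For Agtrap they were Poll (0.98), Gpsm1 (0.98) and Gm47357 (0.97), and for Agt, with its low counts, Bag6 (0.93) and Ube3b (0.93) were among the 3 nearest. The genes nearest to Agtr1a in pattern were Smim19, Nnt, a mitochondrial transhydrogenase gene, and Suox, the mitochondrial sulfite oxidase gene, with its separate ranges entering the likeness.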

How the data were processed

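RNA-seq libraries of cardiomyocytes from 5 NLC-MI and 5 TgGRK5-MI mice were made with an Illumina TruSeq RNA kit. The authors deposited unnormalized whole-number counts per Ensembl gene, and 0 columns were left unused. The submitters' processing notes name Bowtie2, RSEM 1.2.31, DESeq2 and mm10. The strand setting and annotation version are not given in the sources used here. GENCODE M21 (GRCm38) held 51596 of the 51789 identifiers and supplied names, positions and receptor transcripts.

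In R 4.3.3, edgeR 4.0.16 was run with TMM, filterByExpr by group, its quasi-likelihood F test, and p-values adjusted after Benjamini-Hochberg over 15232 genes, with thresholds of an adjusted p under 0.10 and an unadjusted p under 0.05. Log2 CPM used a prior count of 2. Intervals are at 95%, and floors cover counting error only. The tests were tried on simulated counts. Alternatives included DESeq2 1.42.0, limma-voom (limma 3.58.1), other scalings and filters, left-out libraries, covariates, the replicate number as a block, and the median of each marker list. Sequences were compared with Biopython 1.88.

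The members and lists were chosen with earlier results of these data known. Named genes were the members, Grk5, the markers, pathway genes with an unadjusted p under 0.05 or among the 3 most abundant per length of a list, and the 3 genes nearest each member in pattern. Further pathway genes, and the ratios, were named after their values were seen. The results for some genes are not reported here.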

Additional observations from a re-analysis of the deposited data

How the results depend on the processing

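No alternative called a member at an adjusted p under 0.10, and adjusted p-values of the 6 tested members ran from 0.446 to 1.00 over all alternatives. Agtr1b, Agtr2 and Ren1 had 2 counts each and did not pass the filter, and whether more depth would detect them was not tested. The cell mixture covariates and the run without the 3 libraries with the fewest counts were chosen after the data were seen, and causes of the shifts were not tested.

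The 12 genes at an adjusted p under 0.10 became 69 with DESeq2, 50 with limma-voom and quality weights, 4 with the Xist and Y-linked covariate, 29 with the fibroblast and 30 with the macrophage marker covariate, 6 without the 3 libraries with the fewest counts, and 3 to 10 with 1 library left out. Over the 10 libraries Xist was at 0 to 0.916 CPM and the Y-linked genes summed to 158.3 to 222.5 CPM. Every library thus had a male pattern, and the Xist and Y-linked covariate does not adjust for mixed sex. The 586 genes at an unadjusted p under 0.05 became 1810 with limma-voom, 1163 without a filter, 1076 with the fibroblast and 1520 with the macrophage covariate, and 457 to 1069 with 1 library left out.

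With the macrophage covariate 1 of 6 members, Agtr1a, passed an unadjusted p under 0.05 in edgeR's quasi-likelihood test (log2 fold change 0.55, adjusted p = 0.446). In that setting 1520 of 15232 genes passed. Of the other pathway genes, DESeq2 called 1 of 64 (Fos) at an adjusted p under 0.10, against 69 of 28443 over all genes. The 2 of 56 at an unadjusted p under 0.05 became 4 of 64 with DESeq2, 4 of 56 with limma-voom, 5 of 56 with the macrophage covariate and 1 to 4 with 1 library left out. Over all genes, 845 of 28443 passed with DESeq2, 1810 of 15232 with limma-voom and 1520 of 15232 with the macrophage covariate.

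Ace turned to -0.00938 with limma-voom. Atp6ap2 turned to -0.0159 with limma-voom, -0.0366 with the fibroblast and -0.167 with the macrophage covariate, and ran from -0.12 to 0.18 with 1 library left out. Agtr1a turned to -0.0174 without the 3 libraries with the fewest counts and ran from -0.11 to 0.43 with 1 left out. The ranges with 1 library left out were -0.55 to -0.04 for Agt, 0.10 to 0.37 for Ace, -0.24 to -0.03 for Agtrap and -0.35 to -0.13 for Enpep.

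The replicate numbers mark different mice. Same-numbered libraries correlated at 0.0717, 0.662, 0.381, -0.341 and 0.0848 in their deviations from the group means, and 2 of 10 libraries correlated best with their own number, so the numbers were not taken to pair the samples. Under the replicate block, log2 fold changes were -0.29 (Agt), 0.26 (Ace), 0.21 (Agtr1a), -0.11 (Agtrap), 0.03 (Atp6ap2) and -0.20 (Enpep), with edgeR adjusted p of 1.00 each.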
